A study of Homo sapiens with 2 samples.

Results

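Asparagine synthetase, the proline synthesis enzymes, the aspartate and alanine aminotransferases, glutamine synthetase and the mitochondrial PEP carboxykinase were followed gene by gene in 2 poly-A RNA libraries of HEK293T cells, an established human embryonic kidney cell line. One library came from cells given tRF-3004b, a small RNA of the kind cut from transfer RNAs, as a synthetic mimetic (labelled overexpression), and the other from cells given GL2, a non-targeting RNA. Each was delivered by lipid transfection at 500 nM and cells were harvested 120 h later. Both groups therefore carry a transfected 5′-phosphorylated RNA, and untransfected cells were not analysed here. With 1 library per group there is no replicate check and no test between the conditions, so every difference below is between these 2 libraries and every interval covers counting error only. In such bulk RNA, fewer cells of a type and less RNA per cell cannot be told apart.

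The 9 genes ASNS, PYCR1, PYCR3, ALDH18A1, GOT1, GOT2, GPT2, PCK2 and GLUL are those of 28101 named genes that make non-essential amino acids outside the serine and cysteine routes, with PCK2 added. They were chosen by function, with their log2 ratios between these same libraries already known, so those ratios describe the 9 genes and support nothing further. All 9 reached 1 CPM (counts scaled to a common library size) on average over both libraries, the level at which a gene is called measured here, as did 13748 genes in all.

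Asparagine is made in the cytosol by ASNS, which moves the amide group of glutamine onto aspartate. Aspartate comes from oxaloacetate through the aminotransferases GOT1 in the cytosol and GOT2 in mitochondria, alanine from pyruvate through GPT2 in mitochondria, and glutamine from glutamate and ammonia through GLUL. Proline is made from glutamate in a pair of steps, by ALDH18A1 and then by a PYCR reductase. PCK2 turns mitochondrial oxaloacetate into phosphoenolpyruvate. ASNS is a textbook target of ATF4, the transcription factor that is translated when amino acids are short or eIF2 is phosphorylated, and PCK2, GPT2, ALDH18A1 and PYCR1 are also known as ATF4-responsive genes in cultured cells.

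The transfected RNAs are shown because they are the only labelled difference between the groups. Both are written 5′ to 3′, with bases 2 to 8, the positions that act as the seed of a microRNA-like small RNA, in capitals.
tRF-3004b: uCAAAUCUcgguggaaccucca
GL2 control: cGUACGCGgaauacuucgauu

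Depth was 19609933 estimated counts for the control and 1809193 for tRF-3004b, a 10.8-fold difference in depth that makes the tRF-3004b library set the precision of every ratio. The median measured gene had 434 counts in the control and 34 in the tRF-3004b library. All 6 genes taken as HEK293 markers were detected in both libraries, although PAX2 had only 19 and 2 counts. In CPM 4 of them were lower and 2 higher, and their sum, most of it VIM, was 1704 for the control and 1147 for tRF-3004b, which is -0.57 as a log2 ratio (interval -0.64 to -0.51). The 9 enzyme genes in sum had the same log2 ratio of -0.57 (interval -0.64 to -0.51). Without GLUL, left out with its higher ratio already known, the other 8 had -0.97 (interval -1.05 to -0.89). Both sums lean on ASNS, which gave 16178 of the 31937 control counts of the 9 and 383 of their 1913 tRF-3004b counts. No sum without ASNS was computed. Of 5 marker lists of other cells, 3 were higher in every member in the tRF-3004b library: 6 of 6 fibroblast markers (12.3 CPM in sum in the control, 95.1 CPM in the tRF-3004b library), 4 of 4 epithelial markers (10.5 and 34.9 CPM) and 4 of 4 blood cell markers (1.66 and 24.2 CPM). None of these 14 markers was at 0 in either library. The 5 hepatocyte markers went from 46.3 to 23.6 CPM in sum (2 lower, 2 higher, and APOA1 at 0 in both), nearly all of it CPS1. The 3 astrocyte markers went from 1.76 to 4.5 CPM (1 lower, 2 higher). The part of these markers in the ratios of the 9 enzymes was not tested.

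ASNS dominated the group in the control library and much less so in the tRF-3004b library. On the TPM scale, which corrects for transcript length and allows genes to be compared, ASNS stood at 913 in the control and 193 in the tRF-3004b library. In CPM the sum of the 9 genes was 1602 for the control and 1077 for tRF-3004b. Without GLUL, left out with its ratio already known, it was 1386 and 708. ASNS alone made up 811 CPM of the sum of the 9 in the control and 216 CPM in the tRF-3004b library. ASNS made up 61.4% of the summed TPM of the 9 genes in the control and 30.9% in the tRF-3004b library. The order in the control was ASNS, GOT2 at 238 TPM, ALDH18A1 at 129, GLUL at 64.3, GOT1 at 55.8, PCK2 at 36.5, GPT2 at 29.2, PYCR1 at 20.6 and PYCR3 at 1.61, with no overlap between the exact Poisson intervals of any neighbours. In the tRF-3004b library the order was ASNS, GOT2 at 175 TPM, ALDH18A1 at 101, GLUL at 86.1, GOT1 at 41.2, PYCR1 at 11.1, GPT2 at 10.2, PCK2 at 6.08 and PYCR3 at 0.614. There the intervals of ASNS and GOT2 overlapped, as did those of ALDH18A1 and GLUL, of PYCR1 and GPT2, and of GPT2 and PCK2. An overlap of separate intervals is no test of the difference, and intervals for the within-library ratios of these neighbours were not computed.

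**Figure D1:**
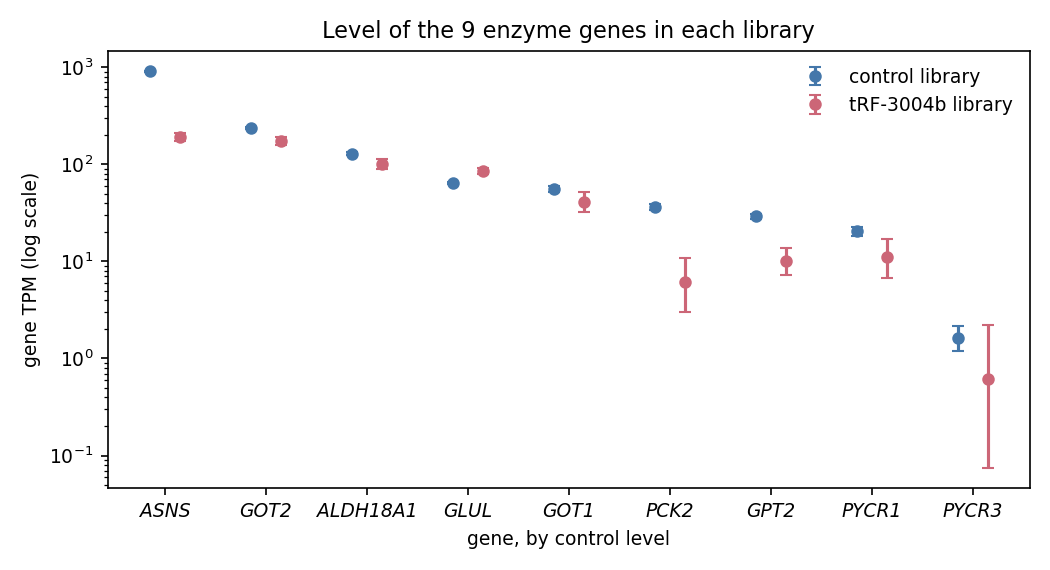
Gene TPM of the 9 enzyme genes (log axis) in the control and tRF-3004b libraries, ordered by control level; points are single libraries and bars are exact 95% Poisson intervals, which cover counting error only. ASNS stands at 913 and 193 TPM, GLUL is the gene whose tRF-3004b point lies above its control point (64.3 and 86.1 TPM), and the bar of PYCR3 rests on 2 counts.

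ASNS (chromosome 7, 97851677 to 97928441, GRCh38), the enzyme of the only human route to new asparagine, had 16178 counts in the control and 383 in the tRF-3004b library, or 811 and 216 CPM. The log2 ratio, tRF-3004b over control, was -1.91 (exact 95% interval -2.06 to -1.77), a 3.76-fold lower level. Of all measured genes, 4.30% had a lower ratio. The pseudogene ASNSP1 shares 156 words of 31 bases with ASNS transcripts and had 431 and 9 counts, so a small part of its reads could belong to ASNS. Summed over both, the log2 ratio was -1.92, so the split between them hardly touches the value. Asparagine breakdown was represented by ASRGL1, an asparaginase, at 15.3 and 16.9 CPM and thus at a log2 ratio of 0.14 (interval -0.45 to 0.68).

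PCK2 (chromosome 14, 24094171 to 24104125), which links mitochondrial oxaloacetate to the glycolytic intermediate pool, had the lowest value of the 9 log2 ratios. It had 662 counts in the control and 11 in the tRF-3004b library, or 33.2 and 6.19 CPM, which gives a log2 ratio of -2.41 (interval -3.43 to -1.57). The interval, wide because of the 11 counts, holds the value of ASNS and reaches to either side of it, so PCK2 cannot be placed below or above ASNS. Its cytosolic counterpart PCK1, the gluconeogenic enzyme of liver and kidney, had 15 and 0 counts and was not measured. Pyruvate carboxylase (PC), which makes mitochondrial oxaloacetate, had 65 and 5 counts and a log2 ratio of -0.21 (interval -1.88 to 1.08).

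GPT2 (chromosome 16, 46884362 to 46931289), the mitochondrial alanine aminotransferase, had 1013 counts in the control and 40 in the tRF-3004b library, or 50.8 and 22.5 CPM. Its log2 ratio was -1.17 (interval -1.67 to -0.72), a 2.25-fold lower level. With the trend over transcript length removed the ratio was -0.94, which no longer reaches 2-fold. The cytosolic alanine aminotransferase GPT was practically silent, with 1 and 0 counts, so GPT2 carried nearly all alanine aminotransferase reads in both libraries.

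The aspartate aminotransferases differed little between the libraries. GOT2 (chromosome 16, 58707131 to 58734316), the mitochondrial enzyme, had 4884 and 407 counts, or 245 and 229 CPM, which puts its log2 ratio at -0.10 (interval -0.25 to 0.05). GOT1 (chromosome 10, 99396870 to 99430624), the cytosolic one, had 924 and 77 counts, or 46.3 and 43.3 CPM, and likewise lay at -0.10 (interval -0.45 to 0.24). The mitochondrial form therefore stood at 4.26 times the TPM of the cytosolic one in both libraries, and the change of their count ratio was 0.00 on the log2 scale (exact conditional interval -0.37 to 0.39). A ratio within a library needs no library scaling. By the same measure GPT2 was lower relative to GOT2 by a log2 change of -1.08 (interval -1.59 to -0.60). Both are mitochondrial enzymes that use glutamate as amino donor. This change is not corrected for transcript length. The median log2 ratio of measured genes of like length was -0.24 for GPT2 and 0.03 for GOT2.

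Of the proline genes, ALDH18A1 was nearly level, and PYCR1 and PYCR3 had ratios below 0 with wide intervals, since their counts were few. ALDH18A1 (chromosome 10, 95605941 to 95656711), which makes the pyrroline-carboxylate precursor from glutamate, had 3611 and 318 counts, or 181 and 179 CPM, which gives a log2 ratio of -0.02 (interval -0.19 to 0.15). PYCR1 (chromosome 17, 81932391 to 81937300), a mitochondrial reductase of the last step, had 321 and 20 counts, or 16.1 and 11.3 CPM, and lay at -0.51 (interval -1.25 to 0.14). PYCR3 (chromosome 8, 143603210 to 143609575), the cytosolic reductase, had 47 and 2 counts, or 2.36 and 1.13 CPM, and its log2 ratio of -1.01 had an interval from -4.15 to 0.87. PYCR1 shares 352 words of 31 bases with MYADML2, which had 0 counts in both libraries. Neither PYCR1 nor PYCR3 can be told from no difference at this depth, and PYCR3 passes 2-fold only narrowly, with -0.99 under DESeq2 size factors.

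GLUL (chromosome 1, 182378098 to 182391790), glutamine synthetase, was the only one of the 9 with a higher CPM in the tRF-3004b library, save that ALDH18A1 stood at 0.01 under DESeq2 size factors and 0.14 with the length trend removed. It had 4297 counts in the control and 655 in the tRF-3004b library, or 215 and 369 CPM, which gives a log2 ratio of 0.77 (interval 0.65 to 0.89), a 1.71-fold higher level. The TPM ratio of ASNS, which consumes glutamine, to GLUL, which makes it, was 14.2 in the control and 2.24 in the tRF-3004b library, a log2 change of the count ratio of -2.69 (interval -2.88 to -2.50). GLUL falls in the last of 10 equal bins of measured genes by transcript length, and the median log2 ratio of that bin was -0.44. With the length trend removed its log2 ratio was 1.22. High GLUL marks perivenous liver cells and astrocytes in tissue. The hepatocyte list was not chosen to tell perivenous cells from other liver cells. In it, CPS1 stood at 45.6 CPM in the control and 22.5 CPM in the tRF-3004b library. The others had few counts in the control and the tRF-3004b library: 2 and 0 for ALB, 0 and 0 for APOA1, 0 and 1 for TTR, and 11 and 1 for HAL. Of the astrocyte markers, GFAP was at 0.80 and 3.94 CPM (16 and 7 counts), AQP4 had 19 and 0 counts and S100B had 0 and 1, and the log2 ratio of their sum was 1.32 (interval 0.04 to 2.49). Their part in the GLUL value was not tested.

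Together, 8 of the 9 genes had a log2 ratio below 0 and 1 above with TMM-scaled counts, with a median of -0.51, beside -0.11 over all 13748 measured genes. ASNS, PCK2, GPT2 and PYCR3 make 4 members at least 2-fold lower, where 14.2% of all measured genes were, and 0 members were at least 2-fold higher, where 12.2% of all were. The interval lay below 0 for 3 members, ASNS, PCK2 and GPT2, against 28.6% of all measured genes, and above 0 for 1, GLUL, against 23.3%. Nothing is read from these shares, since the same contrast was in view when the genes were listed. Across the transcriptome, higher genes made up 46.3% of those past 2-fold on scaled counts but 21.8% on TPM (with 1 added), a change of scale that moved the median of all measured genes by -0.28. Relative to that median, GLUL was at 0.88 with scaled counts and 0.80 with TPM, ASNS at -1.81 and -1.86, and ALDH18A1 at 0.09 and 0.03. The thinly counted members moved more: PCK2 was at -2.30 and -2.02, and PYCR3 at -0.91 and -0.31. The compartment does not sort the 9 genes: the mitochondrial PCK2 and GPT2 were low beside the level mitochondrial GOT2 and ALDH18A1, and cytosolic ASNS was low beside cytosolic GOT1 and GLUL.

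**Figure D2:**
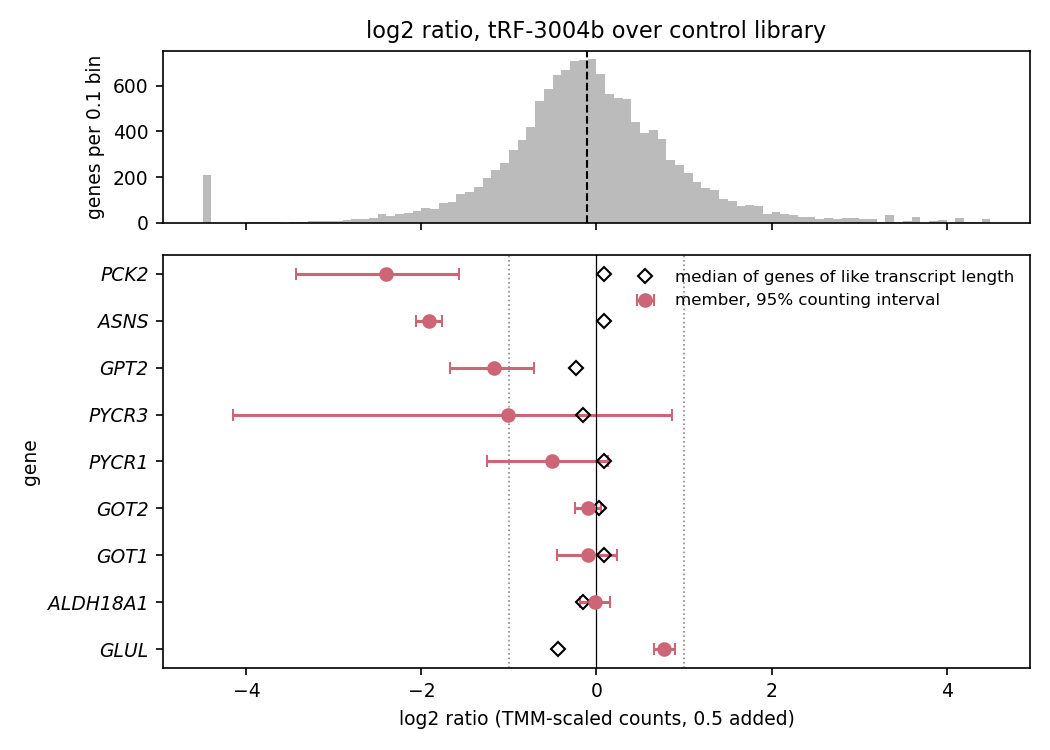
Top, number of measured genes per bin of log2 ratio (bins of 0.1; values beyond the ends are in the end bins; dashed line, the median of -0.11). Bottom, log2 ratio of each of the 9 genes with its exact 95% counting interval, beside the median of genes in the same of 10 bins of transcript length (open diamonds); dotted lines mark 2-fold. PCK2, ASNS and GPT2 lie to the left of their diamonds with intervals below 0, and GLUL to the right with an interval above 0.

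At the level of single RefSeq transcripts, which the authors' quantification estimated by sharing reads among overlapping sequences, the 2 libraries assigned some genes differently. For PCK2, the transcript NM_004563 took 91.5% of the gene's TPM in the control and 15.1% in the tRF-3004b library, whereas NM_001018073 took 8.54% and 82.1%. In estimated counts NM_004563 had 613 and 1.90 and NM_001018073 had 48.6 and 8.77, so most of the 11 tRF-3004b reads of this gene went to the minor control transcript. The GENCODE transcript paired with NM_001018073 has 347 words of 31 bases found in no other paired PCK2 transcript, all between base 1454 and its end at base 1830, which is a 3′ end of its own. With 1.90 estimated counts, NM_004563 was under a floor of 3 counts in the tRF-3004b library.

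For ASNS, 3 transcripts held nearly all of the signal in both libraries. NM_133436 took 48.5% of its TPM in the control and 25.8% in the tRF-3004b library, NM_001673 took 11.8% and 33.3%, and NM_001178077 took 37.7% and 40.9%. All 3 were lower in the tRF-3004b library in TPM (442 and 49.6, 107 and 64.2, and 344 and 78.8). The transcript paired with NM_001673 has 0 words of its own among the paired ASNS transcripts. That pair is 1994 bases long against 2385 in the deposited transcript, so part of NM_001673 was not searched. Whether reads fix its share directly is therefore not known.

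The near-level ALDH18A1 hid an unequal assignment of its transcripts. NM_002860 took 53.3% and 59.0% of the TPM, NM_001017423 took 25.2% and 0.0240%, and NM_001323412 took 0.000347% and 32.8%. NM_001017423 and NM_002860 differ by 6 bases in deposited length, and the GENCODE pair of NM_001017423 has 28 words of its own, so few reads tell this pair apart. The sequence of NM_001323412 was not compared. For GLUL, NM_001033044 took 96.3% and 85.6%, NM_001033056 took 3.49% and 7.34%, and NM_002065 took 0.215% and 7.05%. GOT1 is represented by 1 transcript, and GOT2 had all of its counts on NM_002080.

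**Figure D3:**
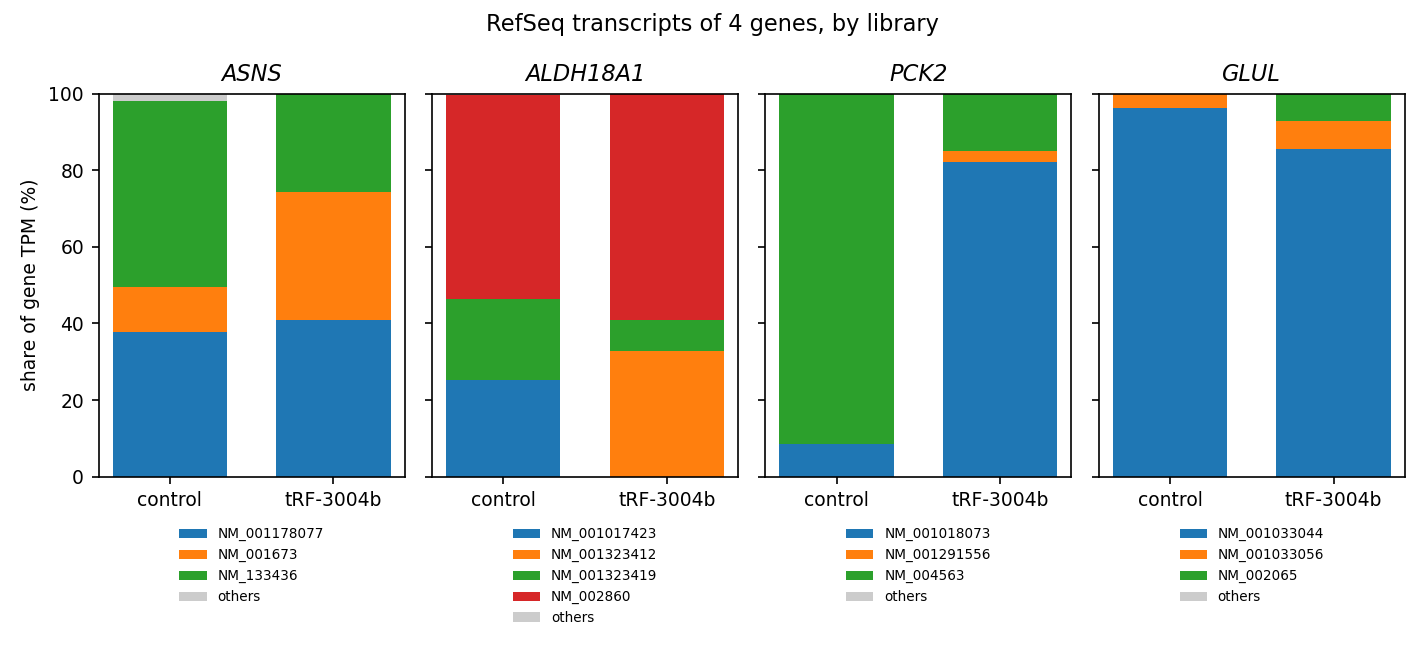
Share of the gene's TPM (%) taken by each RefSeq transcript of ASNS, ALDH18A1, PCK2 and GLUL in the control and tRF-3004b libraries; grey, transcripts under 2.5% in both. The PCK2 bars are led by NM_004563 in the control (91.5%) and by NM_001018073 in the tRF-3004b library (82.1%).

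Promoters were searched for TGATGNAA, the core of the composite element bound by ATF4 with a C/EBP partner, on both strands, in RefSeq windows of 250 bases before to 50 after a gene's start. The table held windows for 6 of the 9 genes (ASNS, ALDH18A1, GOT1, GOT2, PCK2 and GLUL). The core was found in 2 of these, ASNS and GOT1, and in 2.69% of the 10913 measured genes with a window. By window, it was in 2 of the 8 windows of these genes. It was in 1.98% of the 15927 windows of measured genes and in 3.62% of all 35116 windows of this length. ASNS and GLUL had 2 windows each, and window 2 of ASNS (chr7:97872116-97872415) held no match. In window 1 of ASNS the core reads TGATGAAA and begins at -68 relative to the start of that window's gene model. In GOT1 it lies on the opposite strand, read as TTGCATCA, and begins at -198. The level of ASNS was 3.76-fold lower in the tRF-3004b library and that of GOT1 differed little, and PCK2, with the lowest ratio, had no match in its window. A match is no measured binding site, and no match says only that these letters are absent from this window. The windows of these 3 genes (for ASNS, the one with the core) are printed 5′ to 3′ on the gene's strand (RefSeq, GRCh38.p14). The core is in capitals. They are ASNS at chr7:97872359-97872658 (minus strand), GOT1 at chr10:99430575-99430874 (minus strand) and PCK2 at chr14:24094061-24094360 (plus strand).
ASNS: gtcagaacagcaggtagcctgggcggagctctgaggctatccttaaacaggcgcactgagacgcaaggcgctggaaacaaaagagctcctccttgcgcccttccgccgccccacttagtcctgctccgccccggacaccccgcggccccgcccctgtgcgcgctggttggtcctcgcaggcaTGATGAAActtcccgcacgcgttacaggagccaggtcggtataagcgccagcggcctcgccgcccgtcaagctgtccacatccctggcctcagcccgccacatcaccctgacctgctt
GOT1: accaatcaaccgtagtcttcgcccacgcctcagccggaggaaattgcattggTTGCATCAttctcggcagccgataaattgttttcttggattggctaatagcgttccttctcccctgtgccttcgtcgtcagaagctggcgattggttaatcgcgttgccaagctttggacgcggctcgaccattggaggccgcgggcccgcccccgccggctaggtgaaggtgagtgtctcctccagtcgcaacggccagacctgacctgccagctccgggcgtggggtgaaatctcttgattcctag
PCK2: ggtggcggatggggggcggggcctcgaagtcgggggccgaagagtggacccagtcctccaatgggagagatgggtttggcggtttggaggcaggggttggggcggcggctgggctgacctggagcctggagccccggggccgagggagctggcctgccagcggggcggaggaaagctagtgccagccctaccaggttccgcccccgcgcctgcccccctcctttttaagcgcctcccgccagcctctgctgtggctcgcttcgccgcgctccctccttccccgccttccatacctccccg

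The 3′ UTRs were searched for AGATTTG, the 7 bases complementary to bases 2 to 8 of tRF-3004b, in the GENCODE transcript paired with the most abundant pairable RefSeq transcript. ALDH18A1 alone of the 9 genes held it, once, at base 432 of a 3′ UTR of 833 bases. The site, in capitals within its surroundings, is tcaaaaaggaaAGATTTGgaattttagaa. Of 12263 measured genes searched, 14.8% held at least 1 such site. ASNS, PCK2 and GPT2, the members with intervals below 0, had 3′ UTRs of 131, 166 and 2300 bases without it in the transcript searched, and ALDH18A1, which held it, had a log2 ratio of -0.02. For GLUL the searched 3′ UTR of 2701 bases is shorter than the one in the deposited transcript, whose full length is 7554 bases, so part of it may not have been searched. For PCK2 the 3′ UTR of NM_004563 was searched, and that of NM_001018073, which took 82.1% of the gene's TPM in the tRF-3004b library, was not.

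The reactions around the 9 enzymes were followed in 7 further lists, of 71 genes in all, of which 60 were measured. Of these 60, 9 were at least 2-fold lower and 3 at least 2-fold higher (15% and 5%, beside 14.2% and 12.2% of all measured genes), with a median log2 ratio of -0.03. On the low side their share lay near that of the whole transcriptome.

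Enzymes that oppose or parallel the 9 had 0 of 6 measured genes at least 2-fold lower and 1 higher, with a median of 0.07. GLUD1, the mitochondrial glutamate dehydrogenase, was the lowest of those averaging 10 CPM or more, at 535 and 315 CPM and a log2 ratio of -0.77 (interval -0.89 to -0.64), and ASRGL1 was the highest. OAT, which can feed ornithine into the proline route, stood at 313 and 327 CPM. The gene past 2-fold, named after its value was seen, was ALDH4A1, a proline breakdown enzyme, with 23 and 8 counts and a log2 ratio of 1.89 (interval 0.59 to 3.18). The proline oxidases PRODH and PRODH2 had at most 1 count.

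The 5 other genes of the malate-aspartate shuttle, which uses GOT1 and GOT2 to carry reducing equivalents into mitochondria, were all within 2-fold, with a median of 0.10. They ran from the aspartate-glutamate carrier SLC25A12 at -0.52 (interval -1.06 to -0.02) to the oxoglutarate carrier SLC25A11 at 0.66 (interval 0.17 to 1.12). MDH1 and MDH2, the malate dehydrogenases, stood at 0.10 and 0.26.

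Among other aminotransferases 2 of 7 measured genes were at least 2-fold lower and 0 higher, with a median of -0.78. PSAT1, which makes phosphoserine, was at 1122 and 534 CPM with a log2 ratio of -1.07 (interval -1.17 to -0.98), and ABAT, the GABA transaminase, named after its value was seen, had 101 and 1 counts. The cytosolic branched-chain enzyme BCAT1 was at -0.91 (interval -1.06 to -0.77) and the mitochondrial BCAT2 was the highest, at 0.55 (interval -0.14 to 1.18). KYAT3 stood at 0.03 (interval -0.21 to 0.25), apart from BCAT1, so the measured aminotransferases were not uniform. Intervals lay below 0 for 4 of the 7 and above 0 for 0, beside 28.6% and 23.3% of all measured genes.

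Enzymes that, like ASNS, take the amide group of glutamine had 1 of 9 at least 2-fold lower and 0 higher, with a median of -0.21. The low one was GFPT2, an entry enzyme of hexosamine synthesis, with 604 and 15 counts and a log2 ratio of -1.83 (interval -2.69 to -1.11). Its relative GFPT1 was at -0.72 (interval -0.94 to -0.50), and the purine enzyme PPAT was the highest at 0.36 (interval 0.23 to 0.49).

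The list of routes that use aspartate, which also holds ASPA, an enzyme that releases aspartate from N-acetylaspartate, had 4 of 8 measured genes at least 2-fold lower and 0 higher, with a median of -0.66. Without ASPA, left out after the data were seen, it had 3 of 7 lower and a median of -0.02. ASS1, the argininosuccinate synthetase of arginine synthesis, had 737 and 23 counts, or 37.0 and 12.9 CPM, and lay at -1.51 (interval -2.18 to -0.92). The others, named after their values were seen, were thinly counted: ASL, the next enzyme, had 93 and 3 counts, ASPA had 30 and 1, and ADSS1 had 70 and 0. With the tRF-3004b library set to a floor of 3 counts, ADSS1 was 2.08-fold lower, and the median of the list with that value was -0.54. The counting interval of ADSS1 reached up to -0.72, short of 2-fold. The well-counted purine enzymes PAICS, ADSL and ADSS2 stood at 0.01, -0.02 and 0.20, of which ADSS2 was the highest of those averaging 10 CPM or more.

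Enzymes of oxaloacetate and the TCA cycle had 1 of 18 measured genes at least 2-fold lower and 0 higher, with a median of 0.04. IDH2, the mitochondrial NADP-dependent isocitrate dehydrogenase, had 704 and 26 counts and a log2 ratio of -1.27 (interval -1.89 to -0.71). The ATP-forming succinyl-CoA ligase subunit SUCLA2 was the highest, at 0.76 (interval 0.58 to 0.94). Citrate synthase (CS), which competes with GOT2 and PCK2 for oxaloacetate, stood at 0.06.

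Enzymes that hydroxylate or release proline in collagen had 1 of 7 measured genes at least 2-fold lower and 2 higher, with a median of -0.05. P4HA2, a prolyl 4-hydroxylase subunit, had 652 and 20 counts and a log2 ratio of -1.53 (interval -2.26 to -0.90), and its relative P4HA1 was at -0.63 (interval -0.86 to -0.41). PEPD, which frees proline from dipeptides, was the highest of those averaging 10 CPM or more, at 0.03. The genes past 2-fold on the high side, named after their values were seen, were P3H2 with 25 and 8 counts and P3H3 with 52 and 11, in a library where all 6 fibroblast markers were higher too. The part of other cells in these 2 values was not tested.

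**Figure D4:**
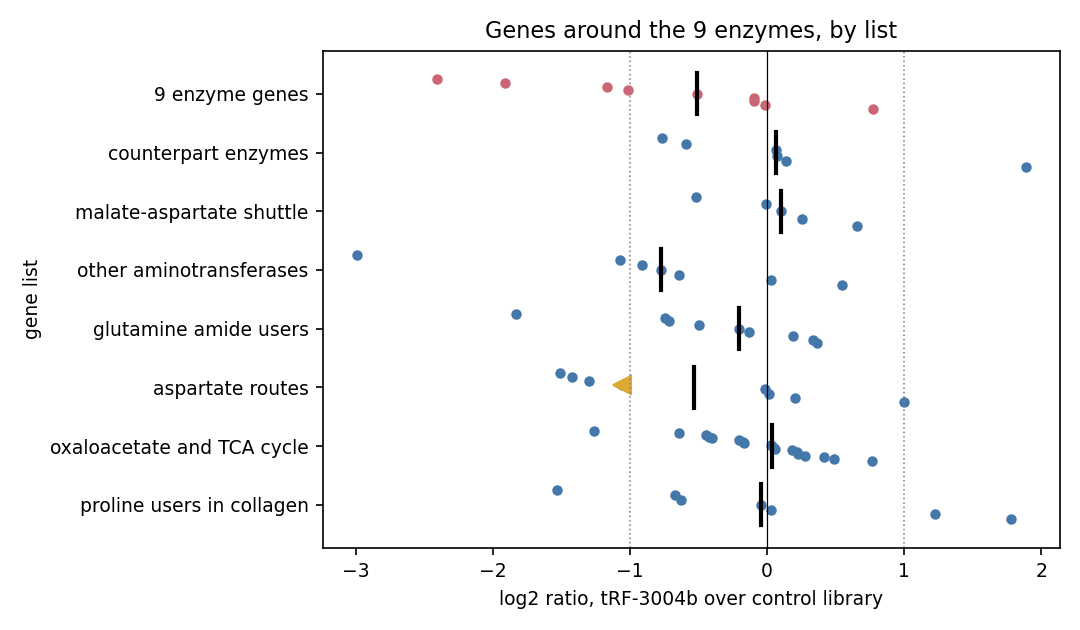
log2 ratio (tRF-3004b over control library) of each measured gene in the 9 enzyme genes (red) and in 7 lists of neighbouring reactions (blue). Black bars are medians and dotted lines mark 2-fold. The yellow triangle is ADSS1, with 0 tRF-3004b counts, at its value with a floor of 3 counts, which its list's median uses. Most genes of the shuttle and TCA cycle lists lie within 2-fold, and PCK2 and ASNS lie lower than any gene of those lists.

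The genes nearest to ASNS in log2 CPM of both libraries, by Euclidean distance among those averaging 10 CPM or more, were MIB1 (distance 0.52; 582 and 247 CPM), CLIC4 (0.57; 767 and 318 CPM) and OGT (0.60; 575 and 274 CPM). With only 2 libraries this likeness is no more than a like pair of levels, and each of the 3 was less low than ASNS, with log2 ratios of -1.24, -1.27 and -1.07.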

How the data were processed

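Poly-A RNA of 1 library per group was quantified by the submitters with kallisto 0.46.1 on GRCh38, per the submitters' processing notes, after selection and a directional kit, per the labels' protocols. Per the file headers, the authors deposited an estimated count and a TPM value for each of 70866 RefSeq transcripts, with lengths in bases as other columns. How reads were trimmed or stranded, and from which annotation release, is not given in the sources used here.

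Transcripts were named from a RefSeq table (GRCh38.p14; 70245) and GENCODE 29 (293); 328 unnamed ones (0.0723% and 0.0713% of counts) were left out. Estimated counts and TPM were summed per gene and counts rounded. Library sizes carry TMM factors (edgeR 4.0.16, R 4.3.3), and CPM uses these. The log2 ratio adds 0.5 counts at a common size. Intervals are exact: conditional Clopper-Pearson for a ratio, Poisson for a level, conditional odds ratio for a ratio of 2 genes, all at 95%. The labels name no molecular identifiers, so copies of 1 molecule can count repeatedly and the intervals cover counting error only. No count test was run, since 1 library per group leaves no spread. Measured genes were cut into 10 bins by transcript length. Shared words are of 31 bases in GENCODE transcripts.

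The members and lists were chosen with earlier results of these data known. The text names all members, list genes averaging 10 CPM or more that pass 2-fold or are highest or lowest in their list, and the 3 genes nearest to ASNS. Other list genes, such as OAT, MDH1 or CS, were added for their reaction after their values were seen, and some are not reported here. The alternatives tried were removal of the length trend, 5 added counts, TPM plus 1, a cut-off of 5 CPM or of 1 count in place of 1 CPM, unscaled totals, and size factors from DESeq2 1.42.0; the sum of ASNS with ASNSP1 was chosen after seeing the data. The computations were tested on simulated data. Python 3.11.15 and scipy 1.17.1 were used.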

Additional observations from a re-analysis of the deposited data

How the results depend on the processing

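With the trend over transcript length removed, 2 members in place of 4 were at least 2-fold lower, since GPT2 (-0.94) and PYCR3 (-0.86) crossed the line, and 1 in place of 0 was at least 2-fold higher, GLUL at 1.22. With TPM, 5 added counts, DESeq2 size factors or a cut-off of 5 CPM (which PYCR3 misses), 3 were lower. The median of the members ran from -0.69 with TPM to -0.30 with the 5 CPM cut-off. Of 63 values of single members under an alternative, 58 stayed within the main counting interval and 5 did not. Those outside were ASNS (-2.24), ALDH18A1 (-0.35), GOT2 (-0.44) and GLUL (0.42) with gene TPM, and GLUL without the length trend. The sign changed in 2, both for ALDH18A1, at 0.01 with DESeq2 size factors and 0.14 without the length trend. ASNS ran from -2.24 to -1.88 and PCK2 from -2.49 to -2.27 over all settings run. Counts past 2-fold among all genes, 1946 lower and 1678 higher, moved by over 1.5 times in at least 1 direction in 3 settings: 5158 and 3079 with no filter beyond 1 count, 1076 and 709 with the 5 CPM cut-off, and 2433 and 679 with TPM. No paired analysis was possible because each group has 1 library. Leaving out a library was not possible for the same reason. The depth of the tRF-3004b library limits PYCR3 (2 counts), PCK2 (11) and PYCR1 (20) most.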
